A study of Homo sapiens with 13 samples.

Results

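Human PEBP1 and the rat Pebp1 transgene were taken as the rows named PEBP1 and ratpebp1, 2 of the 15005 gene rows of the single-cell table, and PEBP1 was also 1 of the 57820 identifiers of the bulk table. Each tumour was grown in an athymic nude mouse by injecting 1000000 BM1 cells, a bone-seeking subline of MDA-MB-231 (human breast cancer), into a mammary fat pad. In each of 3 single-cell experiments, 1 tumour of vector-control cells (BM1-VC, here CTRL) and 1 tumour of BM1-RKIP-S153E cells (here RKIP) were taken 3 weeks after implantation, dissociated, depleted of mouse and dead cells and sequenced on a Fluidigm C1 HT chip. In the bulk experiment, 5 CTRL tumours and 5 tumours of cells carrying human KMT5C were taken at 4 weeks, both arms after lentiviral transduction (pLV-EF1a-IRES-Hygro) and selection. No label names the promoter of the RKIP construct or says whether any of these stable cells were 1 clone or a pool. What a construct did and what differed between the cells before it cannot be told apart.

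PEBP1 encodes RKIP, the Raf kinase inhibitor protein, a small cytosolic protein that restrains the kinase cascade leading to MEK and ERK. Protein kinase C phosphorylates RKIP on a serine near its C-terminal end, which relieves this restraint and turns RKIP towards the receptor kinase GRK2. RKIP is often low in metastases and is known as a metastasis suppressor in breast cancer models. The transgene's row is named for the rat gene, and the labels and cell names give its product as S153E, with glutamate in place of that serine.

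The stretch of human PEBP1 around this site is shown because it holds a site where the transgene's product is labelled as differing from the cells' own protein. It lies in exon 4 of the coding sequence of ENST00000261313.2, at chr12:118144666-118144728 on the forward strand (GRCh38, GENCODE 29), and covers codons 143 to 163 with the codon of that serine in capitals.
PEBP1: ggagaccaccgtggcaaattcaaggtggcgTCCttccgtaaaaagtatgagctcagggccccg
The gene spans chr12:118135858-118145584 in that build and its coding sequence holds 187 codons. Its processed copies PEBP1P1, PEBP1P2 and PEBP1P3 have 90.8%, 95.7% and 88.8% of their aligned bases in common with that coding sequence. In the 10 bulk tumours PEBP1P1 and PEBP1P3 had 0 counts in each, PEBP1P2 had 0 to 7 and the family member PEBP4 had 0 to 3, against 9444 to 13855 for PEBP1. No source used here says how reads that fit both the rat and the human transcript were assigned, so a part of either row may be reads of the other.

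The single-cell table was used for 1568 cells, 247 to 274 per tumour, with 19516061 to 34568923 counts per tumour. BM1 markers (VIM, KRT8, KRT18, CD44, AXL, EGFR and LGALS1, 7 of 7 in the table) summed to 16148 to 19438 CPM (counts per 1000000) in the CTRL and 16673 to 21192 CPM in the RKIP tumours. Of the leukocyte, endothelial, fibroblast, muscle and adipocyte lists, most defining markers had no row in this table (PTPRC, CDH5, COL1A2, ACTA1 and ADIPOQ among them). Every gene with a row had a count in at least 20 cells, so a missing row does not show that a cell type was absent. The 1 leukocyte marker with a row, LAPTM5, was at 80.3 to 125.9 CPM in CTRL and 94.0 to 113.0 CPM in RKIP tumours. The 2 endothelial markers summed to 15.6 to 27.6 and 11.7 to 20.2 CPM, the 2 fibroblast markers to 3.42 to 4.05 and 3.64 to 6.55 CPM. In experiment 1 the deposited whole numbers stood apart. Of 5417 genes with at least 60 values between 1 and 6 in that experiment, 4731 (87.3%) never took at least 1 of these 6 integers, against 5.27% of genes in experiment 2 and 11.99% in experiment 3. PEBP1 skipped 7 of the integers from 1 to 24 in experiment 1, the same 7 in both arms, and its smallest value above 0 was 2; the smallest ratpebp1 value there was also 2. Plain read counts do not leave such gaps over so many genes, and no source used here records a step that would. The arms of experiment 1 share these gaps, whereas levels and shares of cells in experiment 1 may not be on the scale of experiments 2 and 3. Fold changes of PEBP1 and ratpebp1 and the arm difference in PEBP1 variation are given with and without it. Permutation tests, arm means, gene lists and mean correlations over single-cell tumours include it.

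The transgene row was nearly empty in CTRL tumours and present in all 3 RKIP tumours, at very different levels. Summed over cells, ratpebp1 stood at 0, 0.608 and 0.294 CPM in CTRL tumours 1, 2 and 3 and at 11.9, 205 and 126 CPM in RKIP tumours 1, 2 and 3. The arms did not overlap, a separation that 4.38% of genes showed in this direction, and RKIP tumour 1 lay far below the other two RKIP tumours. RKIP exceeded CTRL 337-fold in experiment 2 and 428-fold in experiment 3. In experiment 1, where CTRL had 0 counts, it was 114-fold above the level that 3 counts would give. A count of 0 allows up to 3 only in plain counts, so for experiment 1 this is no firm lower bound. With the replicate experiment as a block, the log2 fold change was 8.64 (SE 0.39, edgeR quasi-likelihood adjusted p = 0.00424), higher in 3 of 3 experiments, and ratpebp1 was the single called gene of 14755 tested (0.00678%). Without experiment 1 it was 8.54 (SE 0.30, edgeR adjusted p = 5.77e-05). Fits with 1 experiment left out hold few tumours, and their p-values lean on variance shared over genes. The lower p-value here is therefore not stronger evidence. The call was lost without experiment 2 (8.96, edgeR adjusted p = 0.0915), without experiment 3 (8.60, edgeR adjusted p = 0.193) and without the block (8.68, edgeR adjusted p = 0.220).

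The RKIP tumours also differed in how many of their cells had the transcript. A ratpebp1 count was found in 23 of 266 cells of RKIP tumour 1 (8.65%, 95% exact binomial interval 5.56 to 12.7%), 122 of 274 of tumour 2 (44.5%, 38.5 to 50.6%) and 152 of 256 of tumour 3 (59.4%, 53.1 to 65.4%). The 3 intervals did not overlap. They cover the sampling of cells within 1 tumour only, and each experiment had 1 RKIP tumour. No source used here says whether molecular identifiers were counted. Human PEBP1 was counted in 86.1%, 94.9% and 94.9% of the same cells, so a cell without the transgene transcript mostly did yield the cells' own transcript. Median totals per cell were 90591, 57023 and 73751 counts, and RKIP tumour 1, with the lowest share, had the highest. It also had the fewest detected genes per cell, with a median of 3305 against 4472 and 4953.5. As values of experiment 1 may be on another scale, its totals need not measure depth as in experiments 2 and 3. When every cell was thinned to 20000 counts, which left out 6, 18 and 15 shallower cells, the shares were 3.85%, 29.3% and 41.1%, in the same order. Shares at this depth count cells with a detected transcript, and a cell without one may still carry the construct.

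Within the positive cells the dose varied over orders of magnitude. The median positive cell held 2 ratpebp1 counts in RKIP tumour 1 (21.9 CPM of that cell), 2 in tumour 2 (46.4 CPM, quartiles 17.4 and 249 CPM) and 6 in tumour 3 (66.6 CPM, quartiles 18.99 and 199 CPM). The highest cell of each tumour held 132, 1463 and 764 counts. In tumour 2 that cell reached 14743 CPM, beside 202 CPM of human PEBP1. The single highest cell supplied 33.3%, 35.8% and 21.3% of all ratpebp1 counts of its tumour, and the highest 2 cells supplied 55.3%, 64.9% and 28.4%. For human PEBP1 in the same tumours, the highest cell supplied 5.32%, 2.58% and 2.85%. The highest 28 cells of tumour 2 and 26 of tumour 3 held 91.2% and 75.6% of their ratpebp1 counts, and the 28 and 26 cells highest for PEBP1 held 38.0% and 39.1% of its counts. The transgene total of a tumour was therefore set to a large extent by few cells, and without the top 2 cells of each RKIP tumour the log2 fold change was 7.67 (SE 0.52, edgeR adjusted p = 0.0510) and no gene was called.

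**Figure D1:**
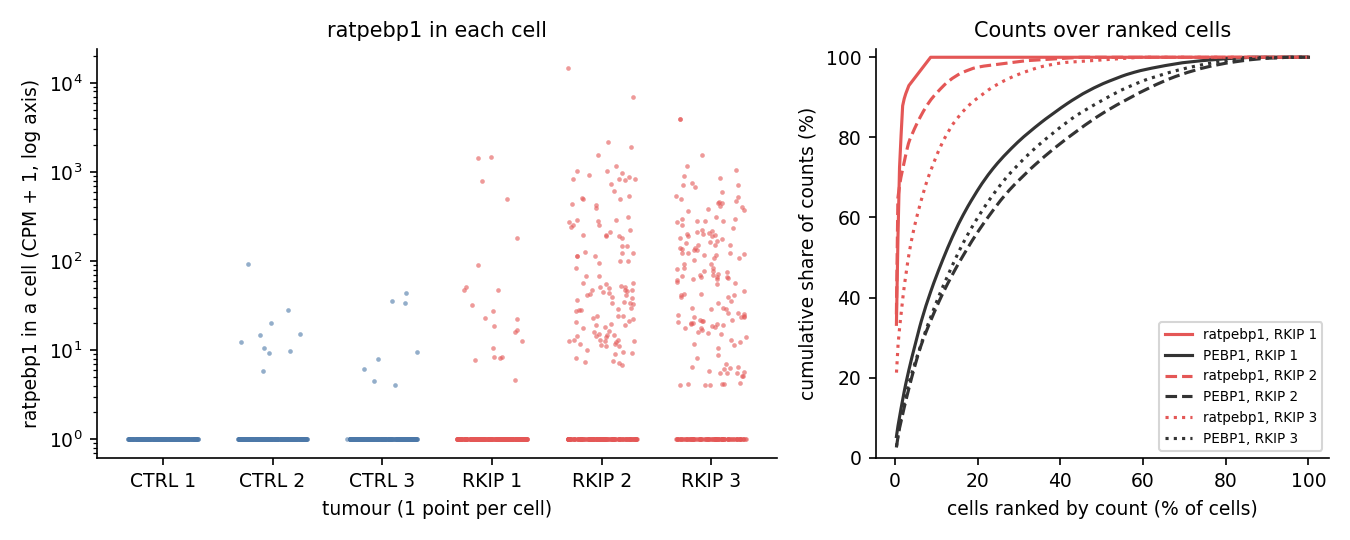
Left, ratpebp1 in each cell of the 6 single-cell tumours (CPM of the cell plus 1, log axis, 1 point per cell, CTRL blue and RKIP red); right, cumulative share of a tumour's counts (%) over cells ranked from highest to lowest (% of cells), ratpebp1 red and PEBP1 black, with 1 line style per RKIP tumour. Positive cells make up 8.65%, 44.5% and 59.4% of RKIP tumours 1, 2 and 3, and the ratpebp1 curves rise far more steeply than those of PEBP1.

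A low share of CTRL cells also had the transgene row, and these cells were not spread evenly over the cell names. In all, 18 of 772 CTRL cells held 20 ratpebp1 counts, 16 cells with 1 count and 2 cells with 2. By tumour they were 0 of 247 cells (which would allow a share of up to 1.21% in plain counts), 10 of 267 (3.75%) and 8 of 258 (3.10%). Cell names carry a column and a row number; CTRL cells have columns 1 to 10 and RKIP cells columns 11 to 20, and both arms use the same 29 rows. In experiment 2 the top 2 RKIP cells were in rows 23 and 18, and 5 of 20 CTRL cells in those rows had a ratpebp1 count (25%), against 5 of 247 in other rows (2.02%). In experiment 3 the top 2 RKIP cells were both in row 3, where 4 of 10 CTRL cells had a count (40%), against 4 of 248 elsewhere (1.61%). In experiment 1 the top cells were in rows 36 and 21, and none of the 19 CTRL cells of those rows had one. The rows were picked after the values were seen, so no test is given, and what a shared row means for reads was not tested. The RKIP shares hardly moved when these rows were left out, at 7.29%, 43.7% and 58.7% of the remaining cells. Within each experiment the RKIP share exceeded the CTRL share at a like depth, medians of 95289, 55704 and 66421 counts per CTRL cell. Depth differed between experiments. The exact binomial interval of RKIP tumour 1 was 5.56 to 12.7%. It overlapped those of CTRL tumours 2 (1.81 to 6.78%) and 3 (1.35 to 6.02%). In thinned cells the CTRL shares were 0%, 1.63% and 1.27%, against 3.85%, 29.3% and 41.1% in RKIP tumours. The thinned interval of RKIP tumour 1 (1.86 to 6.96%) also overlapped those of CTRL tumours 2 (0.44 to 4.11%) and 3 (0.26 to 3.65%).

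**Figure D2:**
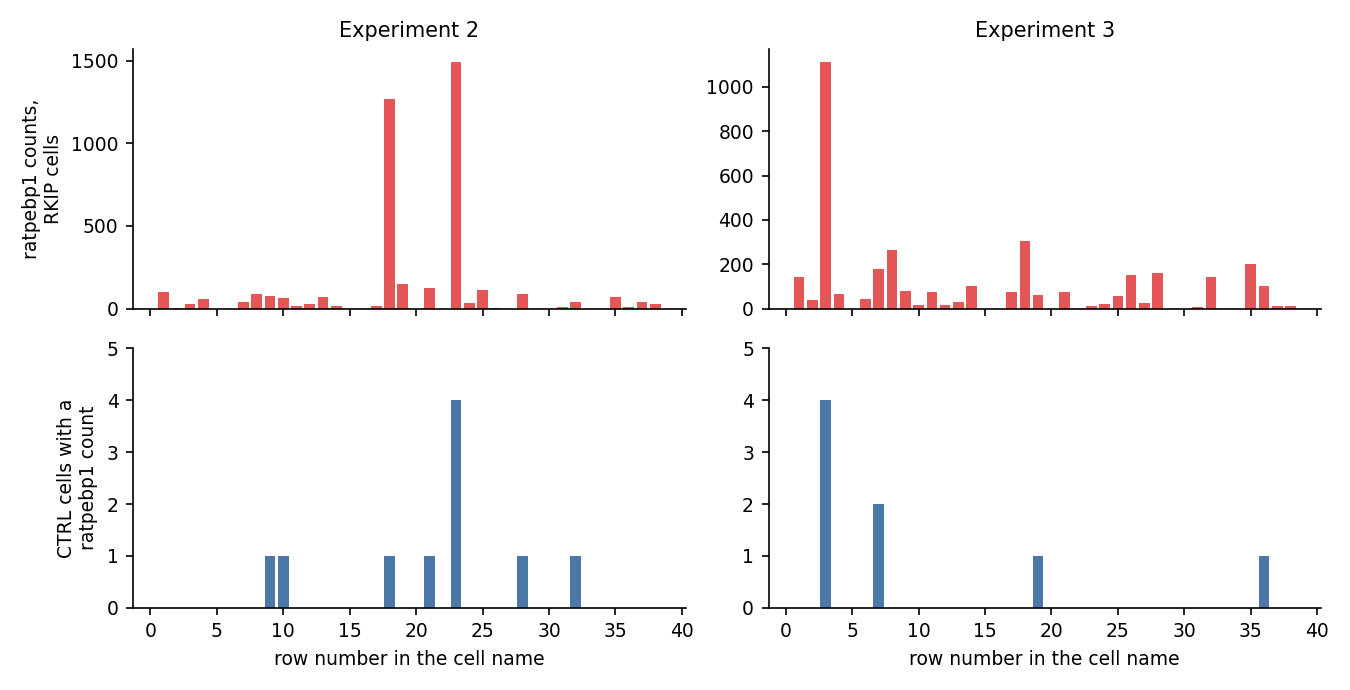
For experiments 2 and 3, ratpebp1 counts summed over the RKIP cells of each name row (top, red bars) and the number of CTRL cells with a ratpebp1 count in that row (bottom, blue bars). The tallest red bars, rows 23 and 18 in experiment 2 and row 3 in experiment 3, stand over rows that hold 9 of the 18 positive CTRL cells.

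Human PEBP1 was lower in all 3 RKIP tumours than in any CTRL tumour, but by less than the test could call. It stood at 366, 301 and 299 CPM in CTRL tumours 1, 2 and 3 and at 274, 270.1 and 279 CPM in RKIP tumours 1, 2 and 3. The 3 RKIP tumours lay within 9 CPM of each other, and the CTRL arm was spread mainly by tumour 1. Within experiments the log2 ratios of RKIP to CTRL were -0.42, -0.15 and -0.10. The fitted log2 fold change was -0.22 (SE 0.12, edgeR adjusted p = 0.976). An exact two-sided permutation test that ignored the pairing by experiment gave p = 0.1, the smallest that 3 against 3 allows without pairing. A separation of this kind, with all RKIP below all CTRL tumours, was found for 4.4% of genes, and 13.4% of genes were lower in all 3 experiments. Without experiment 1 the log2 fold change was -0.13 (SE 0.13, edgeR adjusted p = 0.961).

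PEBP1 also varied inside each tumour. Over the 10 name columns of a tumour, with 18 to 29 cells each, PEBP1 ran from 201 to 577 CPM in CTRL tumour 1, from 211 to 482 in CTRL tumour 2 and from 224 to 457 in CTRL tumour 3. In RKIP tumours 1, 2 and 3 it ran from 142 to 387, from 171 to 335 and from 192 to 349 CPM. These ranges describe small groups of cells of 1 tumour and bear on no comparison between tumours. The median cell held 199.5, 238 and 222 CPM in the CTRL and 156, 206 and 224 CPM in the RKIP tumours. In experiment 3 the medians were thus nearly equal.

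Adding both rows gives the summed human and rat message. It was 366, 301 and 299.7 CPM in the CTRL and 286, 475 and 405 CPM in RKIP tumours 1, 2 and 3. The arms overlapped (exact two-sided permutation p = 0.4, ignoring the pairing by experiment). RKIP minus CTRL was -79.98 CPM in experiment 1 and 174 and 105 CPM in experiments 2 and 3. The transgene made up 4.16%, 43.2% and 31.1% of the summed message in RKIP tumours 1, 2 and 3. These are shares of counts: the lengths of the counted transgene transcript and of the end that the chemistry reads are unknown here, so they are not shares of molecules.

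**Figure D3:**
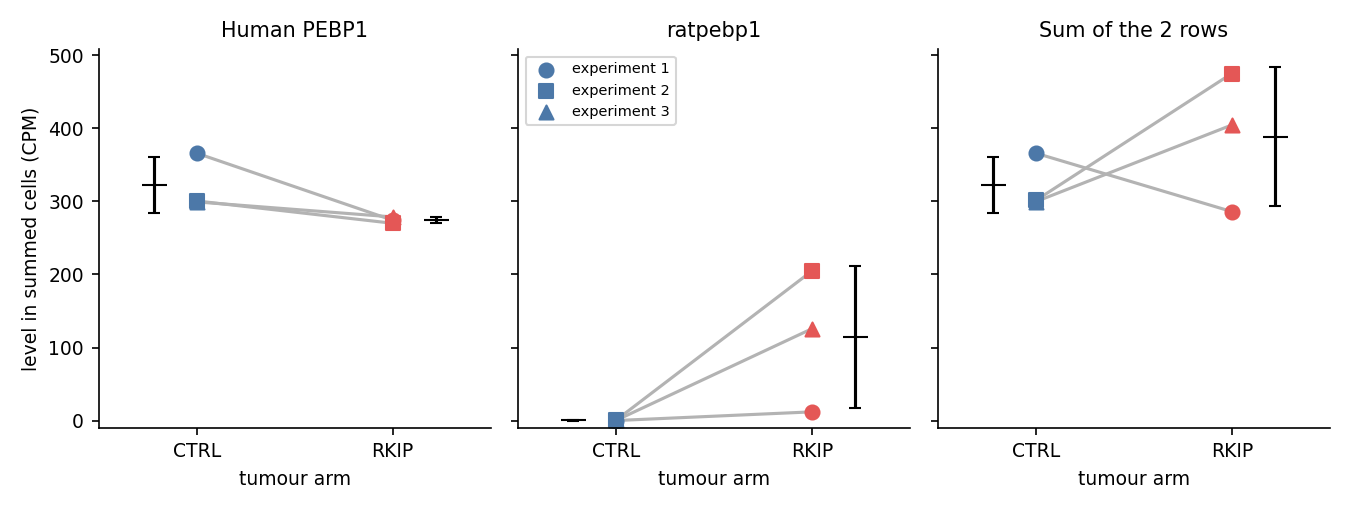
Level in summed cells (CPM) of human PEBP1, ratpebp1 and their sum for the 3 CTRL (blue) and 3 RKIP (red) tumours, lines joining the tumours of 1 experiment and black bars giving the mean and SD of each arm. PEBP1 lies lower in each RKIP tumour than in its CTRL partner, and the sum is lower in experiment 1 and higher in experiments 2 and 3.

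Between cells, PEBP1 varied less than the trend over genes gave for its mean level. Its coefficient of variation in thinned cells was 1.23, 0.977 and 1.11 in the CTRL and 1.09, 1.04 and 1.10 in the RKIP tumours. Relative to the trend of log2 squared coefficient of variation on the mean, it lay at -1.05, -0.60 and -0.36 in the CTRL and at -1.40, -0.46 and -0.44 in the RKIP tumours. At most 32.2% of 10177 genes, taken over all mean levels, lay lower in any tumour. The deepest values came from both arms of experiment 1. The difference between arms was -0.10 (SE 0.41, limma adjusted p = 0.991) and turned to 0.03 (SE 0.57, limma adjusted p = 1.000) without experiment 1, and 0 of 10177 genes were called (0%), with 387 at an unadjusted p under 0.05. ratpebp1 had a far wider spread, with coefficients of variation of 7.48, 6.03 and 2.84 in the RKIP tumours, and its mean was below that of PEBP1 in each.

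The 2 transcripts showed no marked relation within RKIP cells. At equal depth, Spearman's rho between them over cells was -0.059 (260 cells), -0.079 (256 cells) and -0.024 (241 cells) in RKIP tumours 1, 2 and 3, given as a description of cells that share a library. In full counts it was 0.13, 0.057 and 0.25, while both transcripts rose with a cell's total (rho with the total of 0.11, 0.18 and 0.37 for ratpebp1 and 0.62, 0.61 and 0.74 for PEBP1). Among cells with at least 5 ratpebp1 counts, rho between the CPM of the 2 was -0.082 over 52 cells of tumour 2 and -0.11 over 87 cells of tumour 3. In tumour 1 it was 0.46 over only 7 cells. Both transcripts were counted in 22, 116 and 146 cells, ratpebp1 alone in 1, 6 and 6, PEBP1 alone in 207, 144 and 97, and neither in 36, 8 and 7. ratpebp1 exceeded PEBP1 in 7, 38 and 40 cells, which is 2.63%, 13.9% and 15.6% of all cells. In the median positive cell, ratpebp1 was 11.3%, 25% and 26.5% of the counts of both rows.

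**Figure D4:**
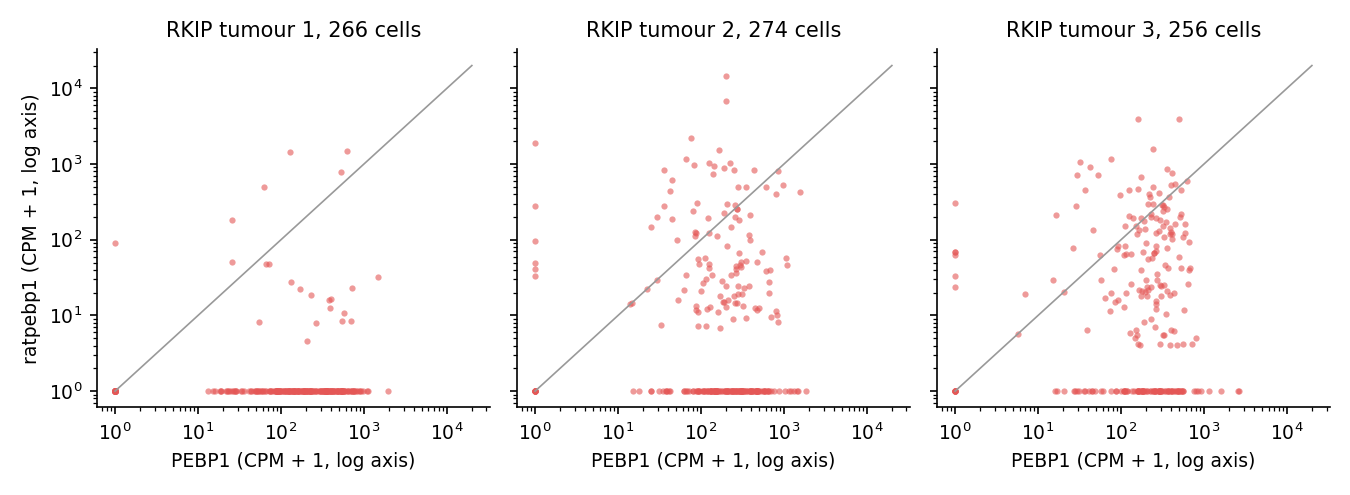
ratpebp1 against human PEBP1 in each cell of the 3 RKIP tumours (CPM of the cell plus 1, both axes log, 1 point per cell), with a grey line where both are equal. Points on the lower edge have no ratpebp1 count and points on the left edge no PEBP1 count; 7, 38 and 40 cells lie above the line.

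Cells with and without the transgene transcript were compared at 20000 counts per cell, where PEBP1 was lower in positive cells of all 3 tumours without passing the test. In RKIP tumour 1 PEBP1 was 159.9 CPM in 10 positive and 242 CPM in 250 negative cells. In tumour 2 it was 261 CPM in 75 positive and 296 CPM in 181 negative cells, and in tumour 3 268 CPM in 99 positive and 319 CPM in 142 negative cells. How many genes were lower in positive cells of all 3 tumours was not counted. Without tumour 1 the log2 fold change of PEBP1 was -0.20 (SE 0.17, edgeR adjusted p = 0.958). Over all 3 tumours it was -0.30 (SE 0.27, edgeR adjusted p = 0.999), beside a median of -0.15 over all genes. It turned to 0.10 (SE 0.18, edgeR adjusted p = 1.000) when classes and sums came from full counts, where positive cells were deeper, with medians of 114168 against 87150, 70934 against 47170 and 97050 against 50866 counts. Another draw of the thinning gave -0.05 (SE 0.25). Besides ratpebp1, 0 of 11260 genes were called (0%) by edgeR and 0 by limma, with 310 at an unadjusted p under 0.05.

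No steady dose relation of PEBP1 appeared over classes of ratpebp1 counts in thinned cells. In RKIP tumour 1 nearly all cells were at 0 counts, with PEBP1 at 239.6 CPM in 250 cells, and the classes above held only 4, 1 and 5 cells, at 112.5, 0 and 250 CPM. In RKIP tumour 2 PEBP1 was 292 CPM in 181 cells at 0 counts, 191 CPM in 27 cells at 1, 225 CPM in 18 cells at 2 to 4 and 315 CPM in 30 cells at 5 or more. In RKIP tumour 3 the same classes held 320.1 CPM (142 cells), 299 CPM (38 cells), 283 CPM (29 cells) and 225 CPM (32 cells). The highest class was thus the highest for PEBP1 in tumour 2 and the lowest in tumour 3. The mean ratpebp1 level in that class was 1258 CPM in tumour 2 and 659 CPM in tumour 3.

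In bulk, no difference of PEBP1 between the arms was called. PEBP1 (ENSG00000089220.4) stood at 254, 295, 301, 256 and 259 CPM in CTRL tumours 801, 803, 804, 813 and 815 and at 257, 258, 269, 268 and 272 CPM in KMT5C tumours 807, 809, 816, 820 and 823. The KMT5C values all lay inside the CTRL range. CTRL tumours 803 and 804 were the highest of all 10, and without 804 the log2 fold change went from -0.04 (SE 0.068, edgeR adjusted p = 0.811) to -0.00079 (SE 0.068, edgeR adjusted p = 0.997). The exact two-sided permutation test over the 10 tumours gave p = 0.460. The edgeR fit called 2.96% of 17947 genes. The CTRL arm was the more spread, with a coefficient of variation of 8.46% against 2.65% in KMT5C tumours. Over all 10 tumours, without centring by arm, it was 6.19%, and 13.1% of 9642 genes of at least 10 CPM had a lower one. In bulk tissue fewer cells of a type and less RNA per cell cannot be told apart. Of the muscle markers in the bulk table, 6 of 11 rose in KMT5C tumours, the summed level of all running from 27.4 to 53.2 CPM against 10.9 to 27.4 CPM in CTRL. With the mean level of the muscle markers as a covariate, the PEBP1 change was -0.09 (SE 0.12, edgeR adjusted p = 0.808). That mean level (log2 CPM) ran from -0.21 to 1.03 in CTRL and from 1.06 to 2.01 in KMT5C tumours. As the arms did not overlap in it, this fit can hardly separate arm from muscle level. The 6 leukocyte markers summed to 85.1 to 112.9 CPM in KMT5C against 113.5 to 160.2 CPM in CTRL tumours, without overlap, and 1 of them was called lower. In the single-cell tumours, depleted of mouse cells, LAPTM5 of this list alone was at 80.3 to 125.9 CPM in CTRL and 94.0 to 113.0 CPM in RKIP tumours. The endothelial markers, of which 3 had a row and 1 was called lower, summed to 34.4 to 56.7 CPM against 49.8 to 76.7 CPM. Fibroblast markers (434.9 to 989.7 CPM against 342 to 897 CPM) and adipocyte markers (0.685 to 1.12 CPM against 0.786 to 1.89 CPM) overlapped, with none called. The part of leukocytes, endothelial cells and tumour cells in these bulk values was not tested. The marker rows are human genes while the hosts were mice, and how far mouse reads entered them was not tested either.

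**Figure D5:**
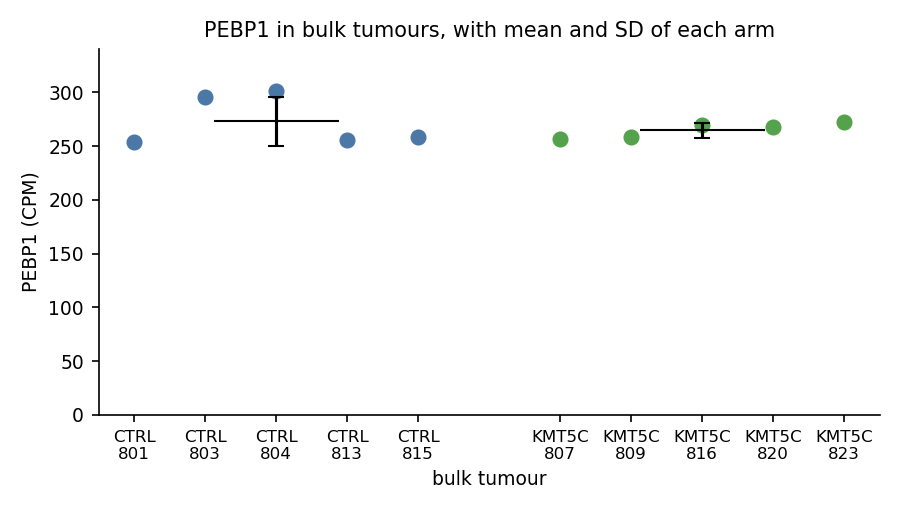
PEBP1 (CPM, axis from 0) in each of the 5 CTRL (blue) and 5 KMT5C (green) bulk tumours, with the mean and SD of each arm in black. The KMT5C tumours sit between 257 and 272 CPM, inside the CTRL range of 254 to 301 CPM.

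The genes around RKIP were described by lists, beside a background of 0.00678% called in the single-cell comparison and 2.96% in the bulk one. Of the genes of the RAS to ERK cascade on which RKIP acts, 0 of 12 were called in either. The median log2 fold change of these 12 was 0.22 in RKIP against CTRL cells, beside 0.00 over all genes, with 7 above 0 and 5 below. MAP2K2, which encodes the ERK kinase MEK2, was at 55.3 ± 9.18 CPM with the vector and 63.5 ± 12.6 CPM with RKIP (SD, n = 3 each), and YWHAZ, a 14-3-3 adaptor protein, was 1132 ± 38.2 and 1058 ± 71.7 CPM. Of the other RKIP partners tested, 0 of 10 were called in single cells and 0 of 10 in bulk. STAT3, a transcription factor, was 112 ± 34.3 and 119 ± 17.04 CPM, and CSNK2A1, a catalytic subunit of casein kinase 2, was 63.9 ± 3.19 and 78.1 ± 18.3 CPM. Of the protein kinase C genes, whose products phosphorylate that serine, 0 of 5 tested were called in single cells and 0 of 8 in bulk. PRKCA was 66.5 ± 14.2 and 63.7 ± 14.7 CPM, and PRKCI was 35.5 ± 2.75 and 23.9 ± 5.41 CPM (a log2 fold change of -0.59, SE 0.28, edgeR adjusted p = 0.976).

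Downstream of ERK, 0 of 15 output and feedback genes were called in either comparison, with single-cell and bulk medians of -0.02 and -0.01. DUSP6, a phosphatase that ERK induces and that inactivates it, was 478 ± 83.3 CPM in CTRL against 446 ± 25.2 CPM in RKIP tumours, and EGR1, an immediate early transcription factor, was 419 ± 58.0 and 381 ± 51.9 CPM. In the metastasis list tied to RKIP, 0 of 8 were called in single cells and 1 of 9 in bulk, where 1.06% of all genes rose. That gene was HBEGF, an EGF receptor ligand, which rose from 87.8 ± 5.65 CPM in CTRL to 105 ± 4.86 CPM in KMT5C tumours (SD, n = 5 each), a log2 fold change of 0.26 (SE 0.065, edgeR adjusted p = 0.0410). Its call was kept without CTRL tumour 801 or 804 and lost without any of the other 8 tumours (edgeR adjusted p from 0.0561 to 0.101), while the log2 fold change stayed between 0.23 and 0.29 in all 10 of these fits. It was also lost with no filter on low counts (0.25, edgeR adjusted p = 0.0920) and once muscle markers entered as a covariate (0.32, SE 0.11, edgeR adjusted p = 0.347). The arms did not overlap in that covariate, so the latter fit can hardly separate arm from muscle level. In single cells HBEGF was 166 ± 16.7 CPM in CTRL against 221 ± 30.5 CPM in RKIP tumours (SD, n = 3 each; 0.40, SE 0.16, edgeR adjusted p = 0.976), which did not pass. HMGA1, a chromatin protein, was 1032 ± 127 and 1051 ± 184 CPM in these cells. Of the factors known to repress PEBP1 transcription or listed with them, 0 of 8 were called in either comparison. BACH1 was 164 ± 69.9 CPM in CTRL against 132 ± 22.2 CPM in RKIP tumours, and ZEB1 was 278 ± 97.1 and 296 ± 59.7 CPM. Between transgene-positive and negative cells, no list gene that was tested was called, and the median log2 fold change was 0.12 for the 15 ERK output genes and -0.47 for the 10 other partners, beside -0.15 over all genes.

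Likeness of pattern was measured as the mean over tumours of the within-tumour Spearman correlation over thinned cells, which share depth but also library and cell size. Over 6 tumours and 2693 genes, the genes most like PEBP1 were ANXA2, a membrane-binding annexin (0.18), RPL15, a ribosomal protein (0.18), ELOB, an elongin subunit (0.17), GSTP1, a glutathione transferase (0.17), and BRK1, a subunit of the actin-regulating WAVE complex (0.17). The least like were PPP1R15A, a phosphatase subunit of the stress response (-0.082), and MTRNR2L12 (-0.096), and the median gene was at 0.043. Over the 3 RKIP tumours and 2694 genes, those most like ratpebp1 were IER3 (0.17), EGR1 (0.15), the mitochondrial fission protein FIS1 (0.14), the NADPH oxidase subunit CYBA (0.14) and the glutathione peroxidase GPX1 (0.13). Human PEBP1 ranked 2579 of these 2694 genes (-0.054). All these correlations are weak. IER3 and EGR1, both immediate early genes, had their highest values in RKIP tumour 3 (0.28 and 0.30), against 0.13 and 0.066 in tumour 1 and 0.11 and 0.093 in tumour 2. In positive and negative cells IER3 was 277 and 89.3 CPM in tumour 1, 114 and 100.4 CPM in tumour 2 and 140.3 and 67.5 CPM in tumour 3. These values come from the cells that chose the gene and carry no test. Between the arms, IER3 was 85.2 ± 22.4 CPM in CTRL against 103 ± 2.53 CPM in RKIP tumours (SD, n = 3 each), a log2 fold change of 0.31 (SE 0.20, edgeR adjusted p = 0.976).

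Over the 10 bulk tumours, with log2 CPM centred per arm and 9641 genes of at least 10 CPM compared, the patterns closest to PEBP1 were those of SORBS3, an adhesion adaptor, DDX56, an RNA helicase, and COMMD4, each with a Pearson r of 0.97. Within the 5 CTRL tumours r was 0.995, 0.987 and 0.985, and within the 5 KMT5C tumours, where PEBP1 varied little, it was 0.72, 0.83 and 0.79.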

How the data were processed

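Both tables hold counts deposited by the authors, whole numbers per gene and tumour or cell; the submitters' processing notes name Trim Galore, STAR, featureCounts and the builds hg38 and hg19, without roles. Versions, strand setting, molecular identifiers and the step behind the skipped integers of experiment 1 are not given in the sources used here; count-based tests were kept for that experiment and limma on log2 CPM was added as an alternative. Cells were assigned to tumours by column name; the labels pair 1 CTRL with 1 RKIP tumour per experiment, name endings were taken to mark the experiment, and the numbers 1 to 3 are arbitrary. A cell needed at least 1000 detected genes, which 1 of 1569 lacked. Sums per tumour were tested with edgeR 4.0.16 (TMM, filterByExpr, quasi-likelihood, replicate block for single cells; R 4.3.3), and variation with limma 3.58.1 on residual log2 squared coefficients of variation (lowess span 0.3, thinned mean at least 0.1, a count in every tumour). SEs beside edgeR values were calculated as the absolute log2 fold change over the square root of the quasi-likelihood F statistic. Thinning to 20000 counts drew without replacement (seed 1). P-values are two-sided and Benjamini-Hochberg adjusted over all genes, threshold 0.05. Single values had exact permutation tests, which did not use the pairing of single-cell tumours. Scripts were tested on simulated data. DESeq2 1.42.0, RLE factors, other filters, depths, seeds and left-out tumours were alternatives. Bulk libraries held 37050750 to 49536763 counts.

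Members and gene lists were chosen with earlier results of these data known. Named genes were PEBP1, ratpebp1, from each list those with an adjusted p under 0.05 and the 2 with the highest mean CPM in single-cell CTRL tumours, the 5 most and 2 least like PEBP1 and the 5 most like ratpebp1 over cells, and the 3 most like PEBP1 in bulk. The markers were leukocyte, endothelial, fibroblast, skeletal muscle, adipocyte and BM1 lists.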

Additional observations from a re-analysis of the deposited data

Results flagged for a closer look

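Among PEBP1 and 12 named list genes, 26 groups of 5 bulk tumours were examined for a tumour far from the rest of its arm, of which chance flags about 1 in 20. The only such value was YWHAZ, a 14-3-3 protein gene, in KMT5C tumour 820, at 2053 CPM against 1902 CPM in the next tumour of that arm. PEBP1 itself had no such tumour in either arm.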

How the results depend on the processing

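The PEBP1 log2 fold change kept its direction and missed the threshold under all 14 bulk and 13 single-cell alternatives, from -0.09 to -0.00079 and from -0.29 to -0.13 (leaving out 1 tumour, -0.06 to -0.00079; 1 experiment, -0.29 to -0.13). The ratpebp1 change stayed between 7.46 and 8.96 (8.54 to 8.96 with 1 experiment left out) and lost its call without the replicate block (8.68), without experiments 2 or 3, and without the top 2 cells of each RKIP tumour (7.67), an alternative added after seeing the data, as were limma on log2 CPM (8.76, still called) and the row exclusion. Genes called between single-cell arms went from 1 to 0 without the block or the top cells, 0 to 1 with an experiment left out, and 60 by DESeq2. Bulk calls were 801 with no filter and 1114 by DESeq2 (46.6% of them higher, against 35.8%). With the muscle covariate, in which the arms did not overlap, they were 23. With 1 tumour left out they were 337 to 681, lowest without KMT5C 820, KMT5C 807 (344) or CTRL 803 (351). The arm difference in PEBP1 variation turned to 0.030 at 10000 counts and ran from -0.21 to 0.028 with 1 experiment left out. PEBP1 in positive against negative cells turned to 0.10 in full counts; calls there were 11 at 10000 counts, 3 with at least 2 ratpebp1 counts and 0 to 8 with a tumour left out. The causes were not tested. The share of positive cells in RKIP tumours 1, 2 and 3 was 3.85%, 29.3% and 41.1% at 20000 counts, 3.38%, 20.1% and 30.6% at 10000, and 2.63%, 18.98% and 33.98% for at least 5 counts; it was 31.4% and 41.0% in tumours 2 and 3 for at least 2 counts and 49.7% in tumour 3 at 40000. These shares depend on depth, and their order over tumours was the same in all.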
